A study of Mus musculus with 6 samples.

Results

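Splenic naive CD4 T cells homozygous for the Ikzf3 N159S allele differed from wild-type cells in 637 of 12117 tested genes (5.26%), of which 380 were higher (3.14%) and 257 lower (2.12%). Genes of cholesterol and fatty acid synthesis made up the clearest group among the higher genes, with 16 of 45 tested members higher and 0 lower (3 lower at an unadjusted p under 0.05, and 18 higher and 0 lower with DESeq2). Thymocyte genes and genes of naive T cell maturation were prominent among the lower ones, together with Thy1, Cd5 and Cd6. The gene lists were chosen with earlier results of these data known. Among the largest changes were a 34.8-fold rise in Pcsk1, a prohormone convertase, and a 20.9-fold fall in Dntt, which encodes terminal transferase. Fcer2a, which encodes CD23 and is on the B cell marker list, fell 24.1-fold. The part of B cell RNA in that fall was not tested.

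Aiolos, the product of Ikzf3, is a zinc finger transcription factor of the Ikaros family. Its N-terminal fingers bind DNA, its C-terminal fingers pair it with itself or with other family members such as Ikaros, and the family works with chromatin remodelling complexes to repress or maintain genes in developing and mature lymphocytes. Naive CD4 T cells are helper cells that have left the thymus and have not yet met antigen, and they recirculate between blood and lymphoid tissue under the control of adhesion molecules, chemokine receptors and interleukin 7.

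The comparison was made between 2 libraries of Ikzf3 N159S/N159S cells and 2 libraries of Ikzf3 +/+ cells, which are 4 of the 6 T cell libraries of the series. The other 2 libraries were from Ikzf3 +/N159S cells. They entered the count filter, the scaling, the mean log2 CPM and the estimate of the spread, but not the contrast itself. All mice were C57BL/6, the cells were sorted from spleen as TCRb+CD4+CD44-CD127+ and given no other treatment, and the labels give no age. CD127 in this gate is the interleukin 7 receptor. The allele was carried by the whole mouse, so its presence in other cells and in the thymus is shared by all N159S/N159S libraries. The methods give 2 homozygous and 2 heterozygous mice but do not fix the number of wild-type mice for this cell type, and no label ties a library to one mouse, so p-values measure the spread between these libraries.

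The deposited values were read counts per gene for 25239 genes. The wild-type libraries held 11696461 and 15189837 reads on genes and the N159S/N159S libraries 17317260 and 13730528. In these 4 libraries 14803 to 17571 genes were detected, and the library with the most reads had the fewest genes detected. Normalised counts are counts scaled to the mean library size after TMM adjustment, and every log2 fold change is that of Ikzf3 N159S/N159S over Ikzf3 +/+ cells. DEGs were genes with an FDR under 0.05, where the FDR is the p of edgeR's quasi-likelihood test adjusted by Benjamini-Hochberg over all 12117 tested genes. For one gene alone, exact permutation of 2 and 2 libraries reaches no two-sided p under 0.333, and the FDR values borrow their spread from all genes and genotypes.

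Ikzf3 lies on chromosome 11 of GRCm38, on the minus strand, from 98464610 to 98546031. The codon that the allele alters is one of 507 in the GENCODE M21 transcript and lies in exon 5, and its wild-type form is shown here because it is the designed difference between the genotypes. The stretch below is the reference coding sequence at chr11:98488949-98488981 (GRCm38, minus strand), with the asparagine codon at 98488964 to 98488966 in capitals.
Ikzf3 wild-type codon: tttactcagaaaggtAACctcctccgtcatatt
The counts hold no base calls, so the genotype of a library cannot be read from them. The normalised count of Ikzf3 was 2351 and 2312 in Ikzf3 +/+ cells and 2950 and 3032 in Ikzf3 N159S/N159S cells. Both N159S/N159S libraries were above both wild-type ones, a log2 fold change of 0.36 (SE 0.09, FDR 0.0490 by edgeR's quasi-likelihood test). The call was just inside the threshold and was lost when any one of the 4 libraries was left out. Ikzf1, which encodes Ikaros, had normalised counts of 15952 and 14748 in wild-type and 11865 and 12648 in N159S/N159S cells, which did not overlap, but its log2 fold change of -0.32 (SE 0.10) had an FDR of 0.0957. Ikzf2, Ikzf4 and Ikzf5, which encode Helios, Eos and Pegasus, had log2 fold changes of 0.20, 0.38 and -0.14 with FDRs of 0.582, 0.366 and 0.560. Among 31 genes of the chromatin complexes that Ikaros proteins work with, 0 were higher and 1, Nacc2, was lower, and the median log2 fold change was -0.03 beside 0.00 over all tested genes.

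The genes of the gate were measured in both genotypes. Cd4 had normalised counts of 13341 and 14884 in wild-type and 13264 and 12227 in N159S/N159S cells, and its log2 fold change of -0.15 had an FDR of 0.633. Il7r, which encodes CD127, had log2 fold change -0.35 (SE 0.10) with an FDR of 0.0799, and its normalised counts were 19289 and 18215 against 14151 and 15374. Cd44, selected against in the sort, had normalised counts of 303 to 485 in wild-type and 238 to 381 in N159S/N159S cells, which overlapped. Of 20 CD4 T cell markers, 0 were higher and 4 were lower (Cd5, Cd6, Trat1 and Lef1), and their summed level was 11600 and 11400 CPM in wild-type and 10100 CPM in both N159S/N159S libraries.

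Markers of other cells were present at low levels in all 4 libraries. The summed level of 37 B cell markers was 532 and 705 CPM in wild-type and 565 and 449 CPM in N159S/N159S cells, ranges that overlap. In the Ikzf3 +/N159S libraries it was 1090 and 1650 CPM, above all 4 of these. Member by member the list lay lower in N159S/N159S than in wild-type cells, with a median log2 fold change of -0.58. It had 16 members below wild-type in both libraries against 2 above, beside 23.9% below and 24.3% above over all tested genes. At an unadjusted p under 0.05, 12 were lower against 1 higher, beside 1058 lower and 1155 higher of all 12117 tested genes. As DEGs, 5 of the 37 were lower and 1, Pou2f2, was higher. The summed level of 33 myeloid and dendritic markers was 127 and 135 CPM in wild-type and 154 and 190 CPM in N159S/N159S cells, ranges that do not overlap. This list lay higher, with a median log2 fold change of 0.60 and 27 of 33 members above 0. It had 13 members above wild-type in both libraries against 3 below, beside 24.3% above and 23.9% below over all tested genes. At an unadjusted p under 0.05, 11 were higher against 2 lower. As DEGs, 2 were higher (Axl and Hmox1) and 0 lower, and DESeq2 called 2 higher and 1 lower. Casp4, Gpr34, Csf2ra and Grn, which are among the higher genes given here, are also known from myeloid cells. The part of myeloid RNA in their rise, and in that of the other higher genes, was not tested. The CD8 lineage markers summed to 182 and 240 CPM against 235 and 201 CPM, while their median log2 fold change was -1.02. Of 10 members, 6 were below wild-type in both libraries, beside 23.9% of all tested genes, and 5 were lower against 1 higher at an unadjusted p under 0.05. The regulatory T cell markers summed to 281 and 295 CPM against 269 and 263 CPM and the cytotoxic and NK-type genes to 369 and 372 CPM against 390 and 405 CPM. In sorted bulk cells, fewer cells of a type and less RNA per cell cannot be told apart.

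The 637 DEGs were spread across the range of expression, as the plot of fold change against level shows. Among the 380 higher genes, 170 rose at least 2-fold, 64 at least 4-fold and 20 at least 8-fold, and the median log2 fold change was 0.93. Among the 257 lower genes the numbers were 88, 30 and 12, with a median of -0.76. Of the 3568 genes with a mean log2 CPM of 6 or more, 65 were higher (1.82%) and 92 lower (2.58%), whereas of the 2089 genes between 2 and 4 it was 124 higher (5.94%) and 59 lower (2.82%). All 637 DEGs had libraries that did not overlap between genotypes, against 48.3% of all tested genes. Of the long non-coding RNAs, 11 of 483 were higher, among them Firre and Neat1, and 8 were lower. Counts of DEGs in any list or class stand beside 3.14% higher and 2.12% lower of all tested genes.

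**Figure D1:**
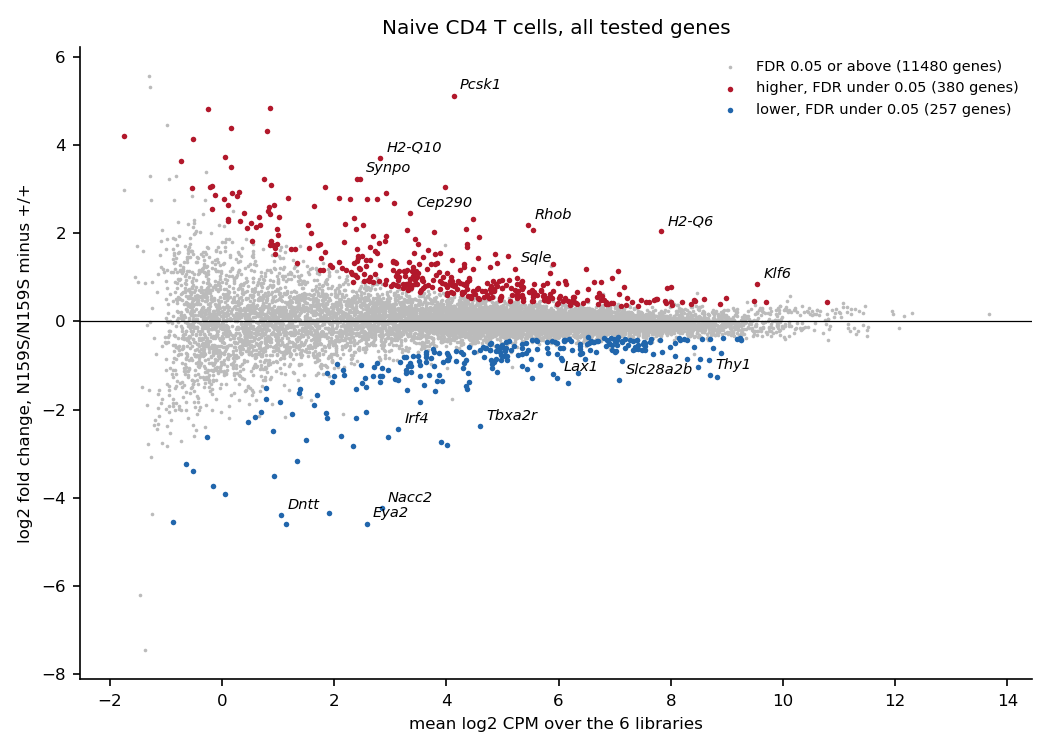
Log2 fold change of Ikzf3 N159S/N159S over Ikzf3 +/+ cells (vertical axis) against the mean log2 CPM over the 6 libraries (horizontal axis), 1 point per tested gene. The 380 higher genes are red, the 257 lower genes blue and all other tested genes grey, and Pcsk1 is the highest red point at a log2 fold change of 5.12.

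Pcsk1 led the higher genes. It encodes proprotein convertase 1/3, an endoprotease that cleaves prohormones in secretory granules of neuroendocrine cells. Its normalised counts were 57.9 and 41.3 in wild-type, 148 and 284 in heterozygous and 1601 and 1798 in homozygous cells, so the genotypes did not overlap. For Pcsk1 the log2 fold change was 5.12 (SE 0.28, FDR 4.49e-06 by edgeR's quasi-likelihood test). H2-Q10, a class I MHC gene of the Q region on chromosome 17, rose from 16.7 and 37.3 to 447 and 288, a log2 fold change of 3.72 (SE 0.32, FDR 8.96e-05). H2-Q6, of the same region and the group that encodes Qa2, rose from 1307 and 1487 to 5721 and 5813, a log2 fold change of 2.04 (SE 0.15, FDR 2.85e-05), and was the most changed of the abundant higher genes. Genes of this region are near-identical copies, so reads can be shared between them. The classical class I genes had much smaller differences, with log2 fold changes of 0.17 for H2-K1 and 0.24 for H2-D1 and of 0.07 for B2m, at FDRs of 0.567, 0.215 and 0.848. Among 28 tested class I and peptide loading genes 3 were higher (H2-Q6, H2-Q10 and Tapbpl) and 1 was lower (Cd1d1).

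Several of the other largest rises were genes of the cytoskeleton, the membrane and vesicle release that are better known from neurons or epithelia. Synpo, encoding the actin-associated synaptopodin, rose from 24.4 and 23.2 to 209 and 242 (log2 fold change 3.24), and Kcnk6, a two-pore potassium channel, from 25.7 and 22.2 to 222 and 224 (3.22). Unc13a and Baiap3, both encoding Munc13-type vesicle priming proteins, had log2 fold changes of 2.79 and 2.77. Their normalised counts were 28.3 and 24.2 against 152 and 213 for Unc13a and 33.4 and 36.3 against 241 and 239 for Baiap3. Phldb1, Trip10 (an F-BAR protein that acts with Cdc42) and Cep290 (a ciliary transition zone protein) rose by 3.05, 2.69 and 2.47 on the log2 scale. Grb7, an SH2 adaptor whose gene is near Ikzf3 on chromosome 11, rose from 42.4 and 36.3 to 319 and 273 (log2 fold change 2.92, SE 0.22, FDR 3.37e-05). The remaining members of the 15 largest rises were Pros1 (protein S, a ligand of the TAM receptors), Casp4 (the inflammatory caspase 11), Nynrin, Adgrg5 (an adhesion G protein-coupled receptor) and St6galnac3 (a sialyltransferase), with log2 fold changes of 2.63 to 3.05. The 15 were picked among DEGs whose N159S/N159S libraries were above the wild-type ones, and all but Casp4 kept the call without any one library.

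Abundant higher genes besides H2-Q6 included Pde2a (log2 fold change 1.15), Lars2 (0.98), Cd9 (0.91), Neurl3 (0.90), Il18r1 (0.89) and Inf2 (0.85). Pde2a, a phosphodiesterase that hydrolyses cAMP and is stimulated by cGMP, rose from 1184 and 1394 to 3218 and 2507. Il18r1, the ligand-binding chain of the interleukin 18 receptor, rose from 1025 and 1243 to 2089 and 2124. The tetraspanin Cd9 rose from 896 and 670 to 1530 and 1394. The call of Lars2, a mitochondrial leucyl-tRNA synthetase, was lost without the second wild-type or the second N159S/N159S library, and the 5 other genes named with it kept theirs.

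**Figure D2:**
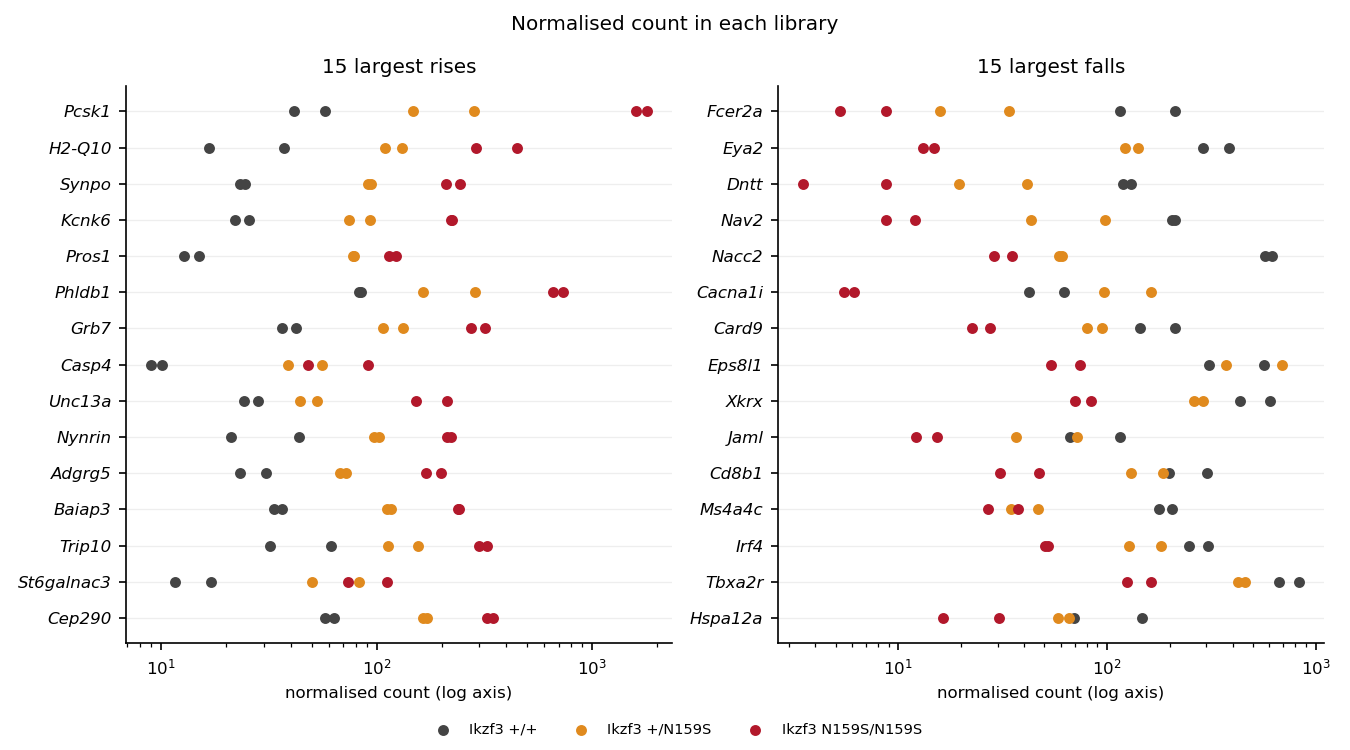
Normalised count (log axis) of the 15 largest rises (left) and 15 largest falls (right) among DEGs at or above a mean log2 CPM of 1, with 1 point per library and 2 libraries per genotype. In every row the 2 red Ikzf3 N159S/N159S points lie on one side of the 2 grey Ikzf3 +/+ points, as the choice of genes required. Orange points are Ikzf3 +/N159S.

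Cholesterol synthesis was the group with the largest share of higher genes, at 35.6% of its tested members beside 3.14% of all tested genes. The list was chosen with earlier results of these data known, so this share is a description and no independent support. The pathway makes sterols from acetyl-CoA by way of mevalonate, farnesyl pyrophosphate, squalene and lanosterol, and its enzymes are known as targets of the transcription factor SREBP2, while the related SREBP1 acts more on fatty acid genes. Of the mevalonate enzymes, Hmgcs1 rose from normalised counts of 836 and 666 to 1244 and 1512, a log2 fold change of 0.88 (SE 0.16, FDR 0.00951 by edgeR's quasi-likelihood test). Mvk, Mvd and Idi1, of the steps from mevalonate, had log2 fold changes of 0.74, 0.74 and 0.84, and Fdps, which makes farnesyl pyrophosphate, of 0.93. Fdft1 and Sqle commit carbon to squalene and its epoxide. Sqle, the most changed member, went from 374 and 403 to 942 and 847 (1.20, SE 0.13, FDR 0.000337), and Fdft1 from 365 and 312 to 557 and 571 (0.74).

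The later sterol enzymes moved the same way in part. Lss, Cyp51 and Msmo1 rose by 0.57, 0.87 and 0.72 on the log2 scale, and Cyp51, which demethylates lanosterol, went from 717 and 583 to 1169 and 1203. Dhcr7, Sc5d and Nsdhl, of the same stretch of the pathway, had log2 fold changes of 0.07, 0.02 and 0.29 with FDRs of 0.799, 0.966 and 0.353. Of the fatty acid genes, the elongases Elovl6 and Elovl7 and the desaturase Scd2 rose, by 0.68, 1.17 and 0.71, while Fasn and Srebf1 had log2 fold changes of 0.25 and 0.15 with FDRs of 0.214 and 0.452. Srebf2 itself had normalised counts of 4074 and 4892 in wild-type and 6045 and 5496 in N159S/N159S cells, a log2 fold change of 0.36 with an FDR of 0.0891. Scd1, which is also on the B cell marker list, pointed the other way at -0.96 (FDR 0.231).

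Across all 45 tested members the median log2 fold change was 0.36 beside 0.00 over all tested genes, and 30 members had both N159S/N159S libraries above both wild-type ones beside 24.3% of all tested genes. The Ikzf3 +/N159S libraries had normalised counts of 451 and 554 for Sqle. The number of higher members was 12 and 13 without the first wild-type or the first N159S/N159S library, 10 without the second N159S/N159S library and 5 without the second wild-type library. Of the members named here, Sqle and Fdps kept the call without any one library.

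**Figure D3:**
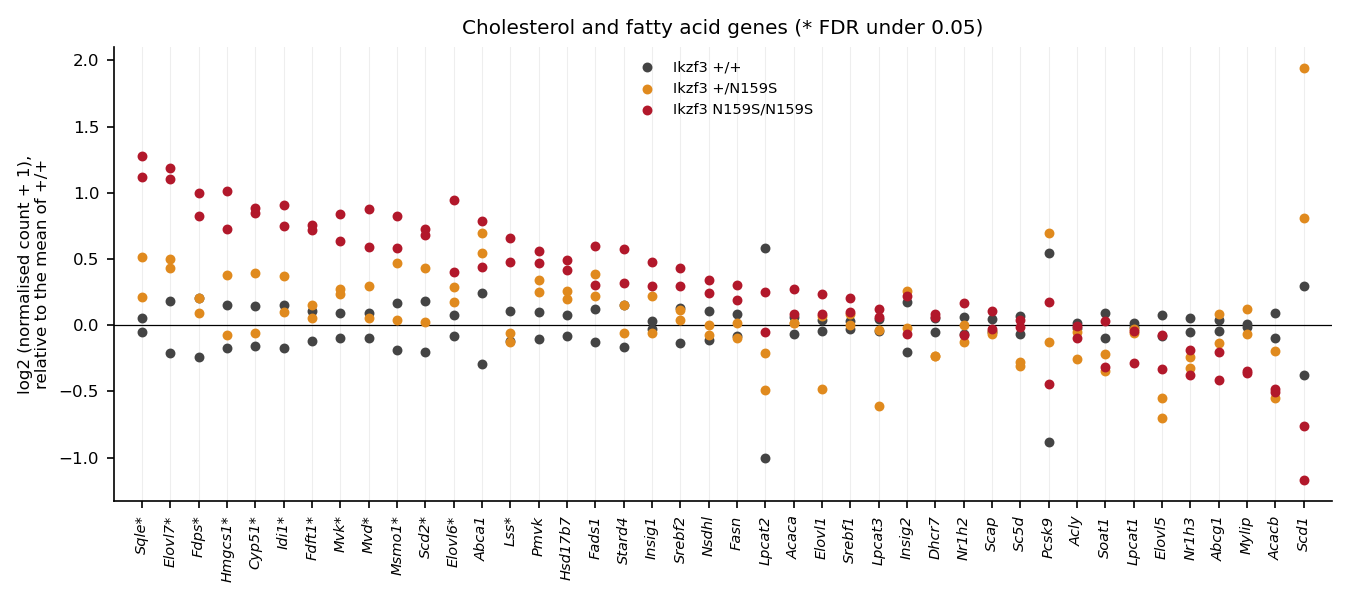
42 tested genes of cholesterol and fatty acid synthesis, ordered by fold change, with log2 of the normalised count plus 1 relative to the wild-type mean on the vertical axis and 1 point per library. The 13 genes with an asterisk are DEGs, and in each of them the 2 red Ikzf3 N159S/N159S points lie above the 2 grey Ikzf3 +/+ points.

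The promoters were searched for letters known for these factors, as a description. RefSeq promoters of GRCm38.p6 were at hand for 9632 of the tested genes, and the 250 bases before each start were read on both strands. The sterol regulatory element TCACNCCAC, a motif chosen after the values were seen, was found in 1 of the 9 higher genes of the list that had a promoter entry, Hmgcs1, in 1.03% of the 290 higher genes with an entry and in 1.17% of all. The core TGGGAA that Ikaros proteins are known to bind was found in 27.9% of the higher genes, 27.0% of the lower genes and 23.4% of all tested genes with an entry. The match in Hmgcs1 and that in Nacc2, one of the most reduced genes, are printed with up to 20 bases on each side and the match in capitals. The first is chr13:119690194-119690242 (plus strand) and the second chr2:26092479-26092524 (minus strand), each read on the strand of its gene, and the Nacc2 match is the reverse complement of the core. The same reverse complement directly follows the Hmgcs1 match, in small letters. The core was found in 2 of the 9 higher genes of the list, Hmgcs1 and Mvk.
Hmgcs1: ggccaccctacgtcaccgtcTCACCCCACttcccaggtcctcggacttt
Nacc2: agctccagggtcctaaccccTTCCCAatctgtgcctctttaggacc

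Among the lower genes, the largest falls left low counts in N159S/N159S cells. Eya2, a transcriptional coactivator with phosphatase activity, fell from normalised counts of 289 and 386 to 14.8 and 13.2, a log2 fold change of -4.58 (SE 0.28, FDR 8.06e-06 by edgeR's quasi-likelihood test). Nacc2, a BTB domain repressor that binds the NuRD complex, fell from 575 and 619 to 28.7 and 35.1 (-4.24, SE 0.19, FDR 9.46e-07), the lowest FDR of the comparison. In Ikzf3 +/N159S cells Nacc2 was at 59.2 and 60.7, below both wild-type libraries and above both N159S/N159S libraries. Nav2, a neuron navigator that acts on the cytoskeleton, fell from 206 and 212 to 8.71 and 12.1 (-4.34). Fcer2a, which encodes CD23 and is on the B cell marker list, fell from 116 and 211 to 5.23 and 8.77 (-4.59, SE 0.50, FDR 0.000335). The other B cell markers that fell did so less, with log2 fold changes of -1.55 for Ms4a1, -1.23 for Ciita, -1.15 for Cr2 and -1.06 for Cd79a. The part of B cell RNA in these falls was not tested, and the number of lower B cell markers was 1 without the second wild-type library and 2 without the second N159S/N159S library.

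The other large falls included receptors, adaptors and regulators of activated lymphocytes. Irf4, a transcription factor induced by antigen receptor signals, fell from 248 and 306 to 52.3 and 50.4 (log2 fold change -2.44), and Card9, an adaptor of innate receptors, from 212 and 144 to 22.6 and 27.4 (-2.82). Tbxa2r, the thromboxane A2 receptor, fell from 834 and 671 to 163 and 125 (-2.37, SE 0.16, FDR 2.85e-05). Jaml, an adhesion molecule of the junctional family, and Ms4a4c, a membrane protein of the CD20 family, had log2 fold changes of -2.70 and -2.59. Xkrx, Eps8l1 and Hspa12a had log2 fold changes of -2.74, -2.81 and -2.20. Cacna1i and Eps8l1 differed from the rest in the heterozygous cells. Cacna1i, a T-type calcium channel subunit, was at 42.4 and 62.4 in wild-type, 97.2 and 163 in heterozygous and 6.10 and 5.48 in homozygous cells. Eps8l1 was at 310 and 567, 692 and 374, and 54.0 and 74.6 in the same order. The calls of Cacna1i and Hspa12a were lost without the second wild-type library, and that of Hspa12a also without the second N159S/N159S library.

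Thymocyte and early T precursor genes were lower as a group, with 7 of 21 tested members lower (33.3%, beside 2.12% of all tested genes) and 0 higher. At an unadjusted p under 0.05, 1 was higher, and DESeq2 called 9 lower and 0 higher. The median log2 fold change was -0.88. This list was chosen with earlier results of these data known, so its share is a description and no independent support. Besides Eya2, Dntt, which encodes terminal transferase and is switched off before T cells leave the thymus, fell from normalised counts of 131 and 119 to 3.48 and 8.77 (-4.39, SE 0.45, FDR 0.000241). Cd8b1, the CD8 beta chain of double-positive and CD8 cells, fell from 301 and 197 to 47.0 and 30.7 (-2.63, SE 0.30, FDR 0.000502). Cd8a, its partner, had normalised counts of 27.0 and 69.5 in wild-type and 18.3 and 15.4 in N159S/N159S cells with an FDR of 0.0889. Cd8b1 was also the 1 lower DEG among 10 tested CD8 lineage markers, a list whose median log2 fold change was -1.02, and the part of CD8 lineage RNA in the fall of Cd8b1 was not tested. The remaining lower thymocyte genes were Cd24a (-1.54), Ly6d (-1.67), Sox4 (-0.92) and Cd1d1 (-0.76). The B cell marker list also lay lower, with a median log2 fold change of -0.58. The part of B cell RNA in the falls of Cd24a, Ly6d and Cd1d1 was not tested. Dntt, Eya2, Cd8b1 and Cd1d1 kept the call without any one library. Between 5 and 6 members of the thymocyte list were lower whichever library was left out.

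Genes that change while a recent thymic emigrant matures also fell more often than they rose. Of 24 tested members, 9 were lower (37.5%, beside 2.12% of all tested genes) and 1 was higher (4.17%, beside 3.14%). The median log2 fold change was -0.46. Of the lower members, Cd24a and Sox4 were also counted on the thymocyte list. The members that moved do not all mark the same stage. Cd24a and Sox4 are known to be high in immature cells, whereas Ly6a, Ly6c1 and Cd55 are known to be gained with maturity, and all 5 were lower here. Ly6c1 fell from 1334 and 1156 to 610 and 402 (log2 fold change -1.29), Ly6a, which encodes Sca-1, from 977 and 811 to 456 and 393 (-1.07), and Cd55, a complement decay accelerating protein, from 1414 and 1623 to 969 and 994 (-0.63). Dapl1, Ift80, Rapgef4 and Nsg2 fell by 1.01, 0.53, 0.51 and 0.37. The single higher member was H2-Q6, whose product group Qa2 is also known to be gained with maturity. The number of lower members fell to between 3 and 5 when any one library was left out, and H2-Q6, Ly6a and Ly6c1 kept the call in all 4 cases.

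**Figure D4:**
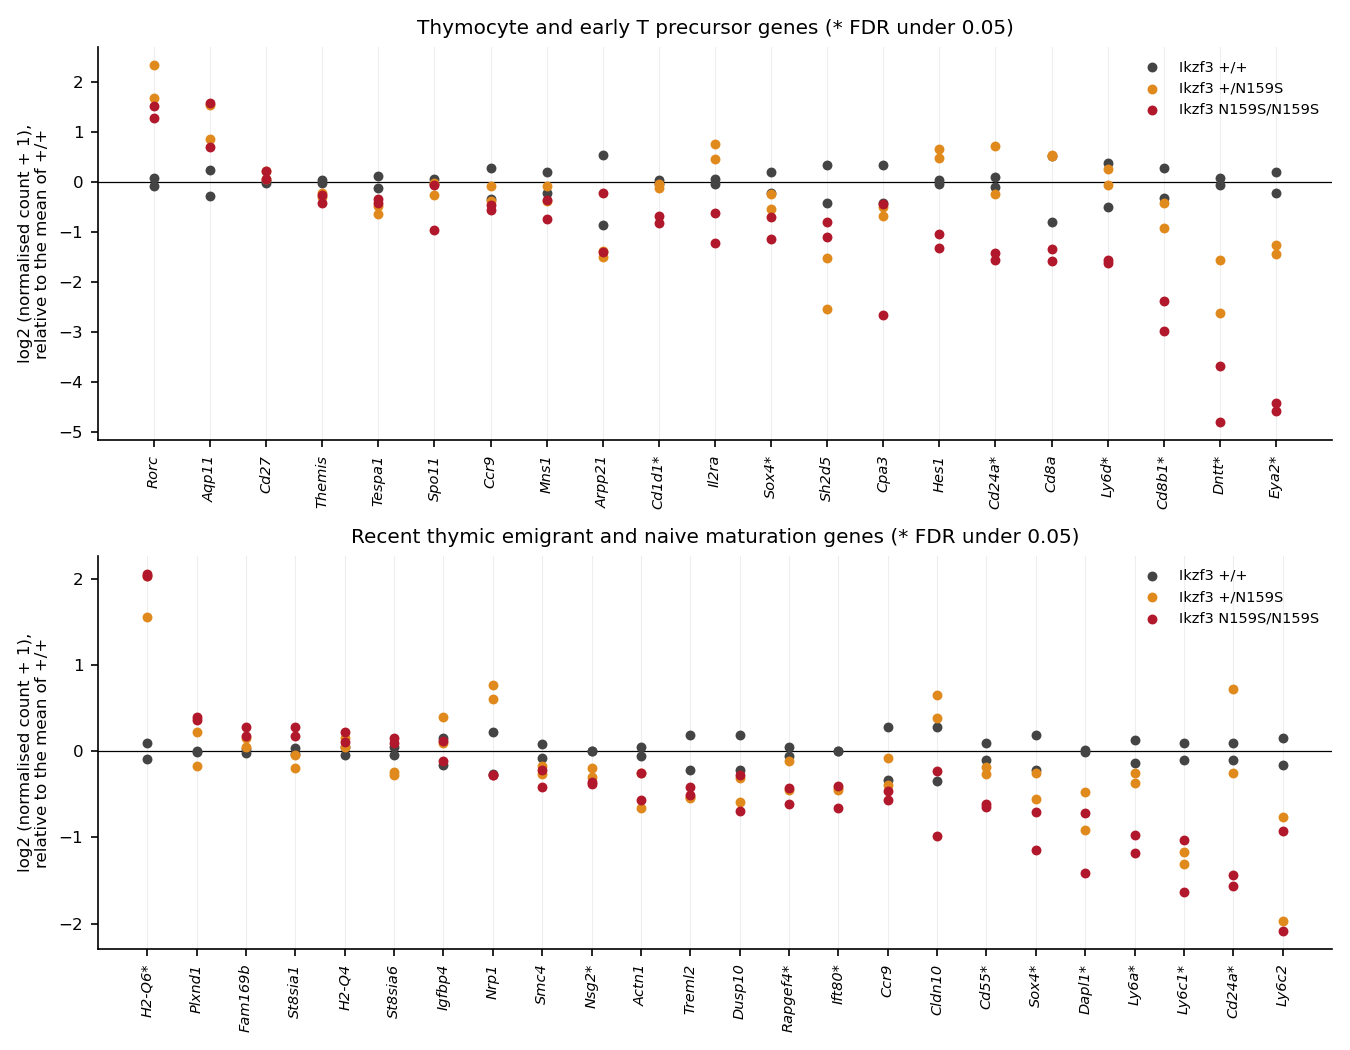
Log2 of the normalised count plus 1 relative to the wild-type mean (vertical axis) for the 21 tested thymocyte genes (top) and the 24 tested maturation genes (bottom), with 1 point per library and an asterisk on each DEG. Eya2 and Dntt at the right of the top panel have red Ikzf3 N159S/N159S points lowest, with orange Ikzf3 +/N159S points between these and the grey Ikzf3 +/+ points.

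Among the abundant falls were several surface proteins of T cells. Thy1, a GPI-anchored glycoprotein of all mouse T cells, fell from normalised counts of 9179 and 8964 to 4167 and 3616, a log2 fold change of -1.22 (SE 0.11, FDR 0.000141 by edgeR's quasi-likelihood test). Cd5 and Cd6, scavenger receptors that dampen T cell receptor signals, fell from 5976 and 6480 to 3631 and 3230 (-0.86) and from 6954 and 7458 to 4208 and 3799 (-0.85). Lax1, a membrane adaptor that also restrains this signal, fell from 1338 and 1739 to 715 and 556 (-1.27, SE 0.15, FDR 0.000525). Cd5, Cd6 and Lax1 were the 3 DEGs among 34 negative regulators of T cell receptor signalling, and each kept the call without any one library.

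Of 36 genes of the T cell receptor and its proximal signalling, 4 were lower (11.1%, beside 2.12% of all tested genes) and 0 were higher. The median log2 fold change was -0.15. It had 18 members below wild-type in both libraries against 2 above, beside 23.9% below and 24.3% above over all tested genes. At an unadjusted p under 0.05, 11 were lower against 0 higher. The 4 lower genes, Trat1, Plcg1, Ppp3ca and Nfatc2, had small log2 fold changes, at -0.64, -0.57, -0.47 and -0.36. Leaving out the second wild-type library removed all 4 calls, and 2, 2 and 1 remained without the first wild-type, the first N159S/N159S or the second N159S/N159S library. Among 31 costimulatory and coinhibitory receptors, Thy1 and Icos were lower and Lair1, an inhibitory collagen receptor, was higher. Icos went from 777 and 772 to 467 and 478 (-0.71). Slamf1, the founding SLAM receptor, fell from 287 and 296 to 74.0 and 92.1 (-1.82, SE 0.18, FDR 0.000153), while its relative Slamf6 rose from 2015 and 1949 to 2658 and 2756 (0.45, FDR 0.0173).

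Other abundant falls were Ehd3, an endocytic recycling protein (log2 fold change -1.39), Slc28a2b, a concentrative nucleoside transporter of the same family as Slc28a2 (-1.32), Enc1, an actin-binding kelch protein (-1.16), Sema4a, a semaphorin (-0.91), and Cmah, which makes the sialic acid Neu5Gc (-0.88). Each had N159S/N159S libraries below the wild-type ones, as the naming rule required, and each kept the call without any one library. The glycolytic enzyme Eno1 fell from 8026 and 7567 to 4028 and 3571 (-1.04, SE 0.11, FDR 0.000266). Of 38 glycolysis and glucose uptake genes, 4 were lower (10.5%, beside 2.12% of all tested genes) and 1, Aldoc, was higher (2.63%, beside 3.14%). Besides Eno1 the lower ones were Ldhb (-0.66), Pfkp (-0.45) and Pkm (-0.37). Only the call of Eno1 among these 5 kept its side of the threshold without each library in turn.

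Cytokine receptors changed in both directions. Of 51 interleukin, interferon and growth factor receptors, 5 were higher (9.80%, beside 3.14% of all tested genes) and 3 lower (5.88%, beside 2.12%). Il2rb, the beta chain shared by the interleukin 2 and 15 receptors, fell from 363 and 501 to 156 and 145 (log2 fold change -1.53, SE 0.17, FDR 0.000436). Il10ra and Ifngr2 fell by 0.61 and 0.42. Besides Il18r1, the higher members were Csf2ra (1.11), Crlf2, a chain of the TSLP receptor (0.50), and the activin receptors Acvr2b (2.24) and Acvr1b (0.39). The cytokine Tnf fell from 492 and 450 to 170 and 171 (-1.46, SE 0.14, FDR 0.000131), the only DEG among 21 tested cytokines and ligands. One of its receptors, Tnfrsf1a, rose from 698 and 697 to 1152 and 1106 (0.70, SE 0.10, FDR 0.00261). Socs3 and Socs5, feedback inhibitors of cytokine signalling, rose by 0.79 and 0.92, and none of the 14 genes of that list was lower. Il2rb, Il18r1, Tnf, Tnfrsf1a and Socs3 kept the call without any one library.

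Of 44 tested G protein-coupled receptors outside the chemokine receptors, 7 were higher (15.9%) and 6 lower (13.6%). Over all tested genes these shares were 3.14% and 2.12%. Ptgir, the prostacyclin receptor, rose from 118 and 92.7 to 262 and 318 (log2 fold change 1.47, SE 0.19, FDR 0.000973), and Gpr34, a lysophosphatidylserine receptor, to 192 and 183 from a wild-type mean of 75.7 (1.34). Other higher members were Adgrg5, P2ry1, S1pr2 (0.82) and Gpr132 (0.41). The lower members were the histamine receptor Hrh2 (-0.92), the lysophosphatidic acid receptor Lpar5 (-0.81), the vasoactive intestinal peptide receptor Vipr1 (-0.48), Adgrg3, Gpr155 and F2rl1. The thromboxane A2 receptor gene Tbxa2r, a lower DEG with a larger fall (-2.37), is of this kind too but was not on this list. The 6 lower calls became 0 to 2 and the 7 higher calls 3 to 6 when one library was left out, and only Adgrg5 and Ptgir kept the call throughout. Rgs1, which shortens G protein signals, rose from 309 and 333 to 726 and 1092 (1.49, SE 0.18, FDR 0.000564), the only DEG of 9 RGS genes. Of 13 phosphodiesterases Pde2a and Pde8a were higher (1.15 and 0.74) and Pde4b was lower (-0.47).

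Of 53 tested ion channel and calcium handling genes, 7 were higher (13.2%, beside 3.14% of all tested genes) and 0 lower. At an unadjusted p under 0.05, however, it was 11 higher and 8 lower, and the median log2 fold change was 0.02. The counts were 6 higher and 0 lower with DESeq2, 4 and 0 with the replicate block, 10 and 5 with a term for genes detected and 11 and 9 with the crossed pairing. Cacnb3, a calcium channel beta subunit, rose from 111 and 74.5 to 290 and 383 (log2 fold change 1.88, SE 0.22, FDR 0.000520), and Atp2b4, a plasma membrane calcium pump, from 19.3 and 49.3 to 179 and 123 (2.09, SE 0.34, FDR 0.00438). Orai1, the pore of the store-operated calcium channel, rose from 460 and 468 to 665 and 623 (0.47, SE 0.11, FDR 0.0345). Slc8b1, Kcnh2 and Trpm4 rose by 0.79, 0.54 and 0.68. Kcnk6, Cacnb3 and Atp2b4 were the 3 higher members whichever library was left out. Cacna1i and the water channel gene Aqp9, both lower DEGs, were not on this list.

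The homing and integrin genes were also mixed. Itga5, which pairs with integrin beta 1 to bind fibronectin, rose from normalised counts of 114 and 131 to 350 and 375 (log2 fold change 1.55, SE 0.16, FDR 0.000241), whereas the laminin-binding Itga6 fell from 3938 and 4469 to 2624 and 2424 (-0.74, SE 0.11, FDR 0.00233). Icam1, the ligand of LFA-1, rose from 432 and 505 to 749 and 861 (0.77). Klf2, a transcription factor of quiescent T cells that controls trafficking genes, rose from 6504 and 6659 to 8906 and 10216 (0.54, SE 0.11, FDR 0.0195). Its relative Klf6 rose from 8439 and 9550 to 14863 and 17565 (0.85, SE 0.13, FDR 0.00262). Foxo1, known to act on trafficking genes too, had a log2 fold change of -0.30 with an FDR of 0.124. The call of Klf2 was lost without either wild-type library and without the second N159S/N159S library, and that of Klf6 was kept.

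Of 87 transcription factors of the T lineage and its helper subsets, 5 were higher (5.75%, beside 3.14% of all tested genes) and 5 lower (5.75%, beside 2.12%). The higher ones were Klf6, Rarg (a retinoic acid receptor), Myc, Tcf4 and Bhlhe40, and the lower ones Irf4, Myb, Sox4, Runx1 and Lef1. Rarg rose from 501 and 637 to 1319 and 1146 (log2 fold change 1.11, SE 0.13, FDR 0.000564). Myb, a factor of progenitors and of naive cell upkeep, fell from 296 and 267 to 145 and 132 (-1.01, SE 0.16, FDR 0.00374). Lef1, a factor of naive T cells, fell from 8754 and 7165 to 4609 and 5864 (-0.60, SE 0.15, FDR 0.0391). Klf6, Rarg, Irf4 and Myb kept the call without any one library.

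Genes of antigen experience and memory were higher in 7 of 37 cases (18.9%, beside 3.14% of all tested genes) and lower in 1 (2.70%, beside 2.12%). Their median log2 fold change was 0.06. The higher ones were Il18r1, Anxa2 (1.37), Lgals1 (0.81), Capg (0.60), Tmem176b (1.59), Bhlhe40 (1.16) and Ahnak (0.63). Lgals1, which encodes galectin 1, rose from 445 and 436 to 761 and 784. Il2rb, likewise a gene of antigen-experienced cells, was the lower member. With one library left out, 3 to 5 members were higher. Immediate early and activation-induced genes went both ways, with 7 of 57 higher (12.3%, beside 3.14% of all tested genes) and 5 lower (8.77%, beside 2.12%). Ier5l went from 6.43 and 3.02 to 89.7 and 96.5 (FDR 0.000550), and Btg2, Per1, Nfkb2, Myc and Bcl2a1b rose along with Rgs1. Dusp2, a nuclear phosphatase of MAP kinases, fell from 5909 and 5972 to 3610 and 3326 (-0.78), Nr4a3 from 658 and 564 to 328 and 348 (-0.85), and Sgk1, Klf10 and Irf4 were lower too. Nr4a3, Dusp2, Irf4, Ier5l and Rgs1 kept the call without any one library.

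Interferon-stimulated genes had 8 of 88 members higher (9.09%, beside 3.14% of all tested genes) and 6 lower (6.82%, beside 2.12%). Their median log2 fold change was -0.02. Oas1a, a sensor of double-stranded RNA, rose from 82.3 and 86.6 to 348 and 344 (2.03, SE 0.19, FDR 0.000126), and Slfn3 rose to 307 and 308 from a wild-type mean of 153. Bst2, Parp12, Gbp2, Sp140, Ifi44 and Oasl2 rose by 0.43 to 1.29. On the lower side Ifit2 (-0.64), Ifi208 (-0.69), Herc6 (-0.59), Slfn8 (-0.53) and Slfn5 (-0.58) joined Ly6a. The Schlafen genes therefore fell on both sides. With one library left out, 2 or 3 members were higher and 3 or 4 lower.

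The remaining groups held fewer calls. Of 68 glycosyltransferase and sulfotransferase genes of the cell surface, 6 were higher, among them Mgat4b (1.84), B3gnt3 (1.28) and Chst15 (0.91), and 4 were lower, Cmah, Galnt9 (-1.30), St3gal1 (-0.63) and Galnt4 (-0.52). Of 93 small GTPase and actin regulators, 5 were higher and 6 lower. The small GTPase gene Rhob rose from 269 and 335 to 1258 and 1523 (2.19, SE 0.20, FDR 0.000107) and kept the call without any one library, and the exchange factor Arhgef5 had a log2 fold change of 2.60. Tiam1, an exchange factor for Rac, fell from 122 and 152 to 57.5 and 60.3 (-1.23, SE 0.23, FDR 0.00909). Of the Bcl2 family, the survival genes Bcl2l2 (1.64) and Bcl2a1b (1.09) rose and Bcl2l1, which encodes Bcl-xL, fell (-0.75). Tfe3, a transcription factor of lysosomal genes, and Grn, which encodes progranulin, rose by 0.93 and 1.33, while the lysosomal galactosidase Gla fell from 238 and 258 to 129 and 120, and Atg16l2 fell by 0.49. Of 53 cell cycle genes, Kif23 and Stmn1 were higher (0.85 and 0.69) and 0 lower, and the 3.77% higher was near the 3.14% of all tested genes. Of 40 heat shock and unfolded protein response genes 0 were DEGs by edgeR, 4 were above and 7 below wild-type at an unadjusted p under 0.05, and DESeq2 called 2 lower.

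**Figure D5:**
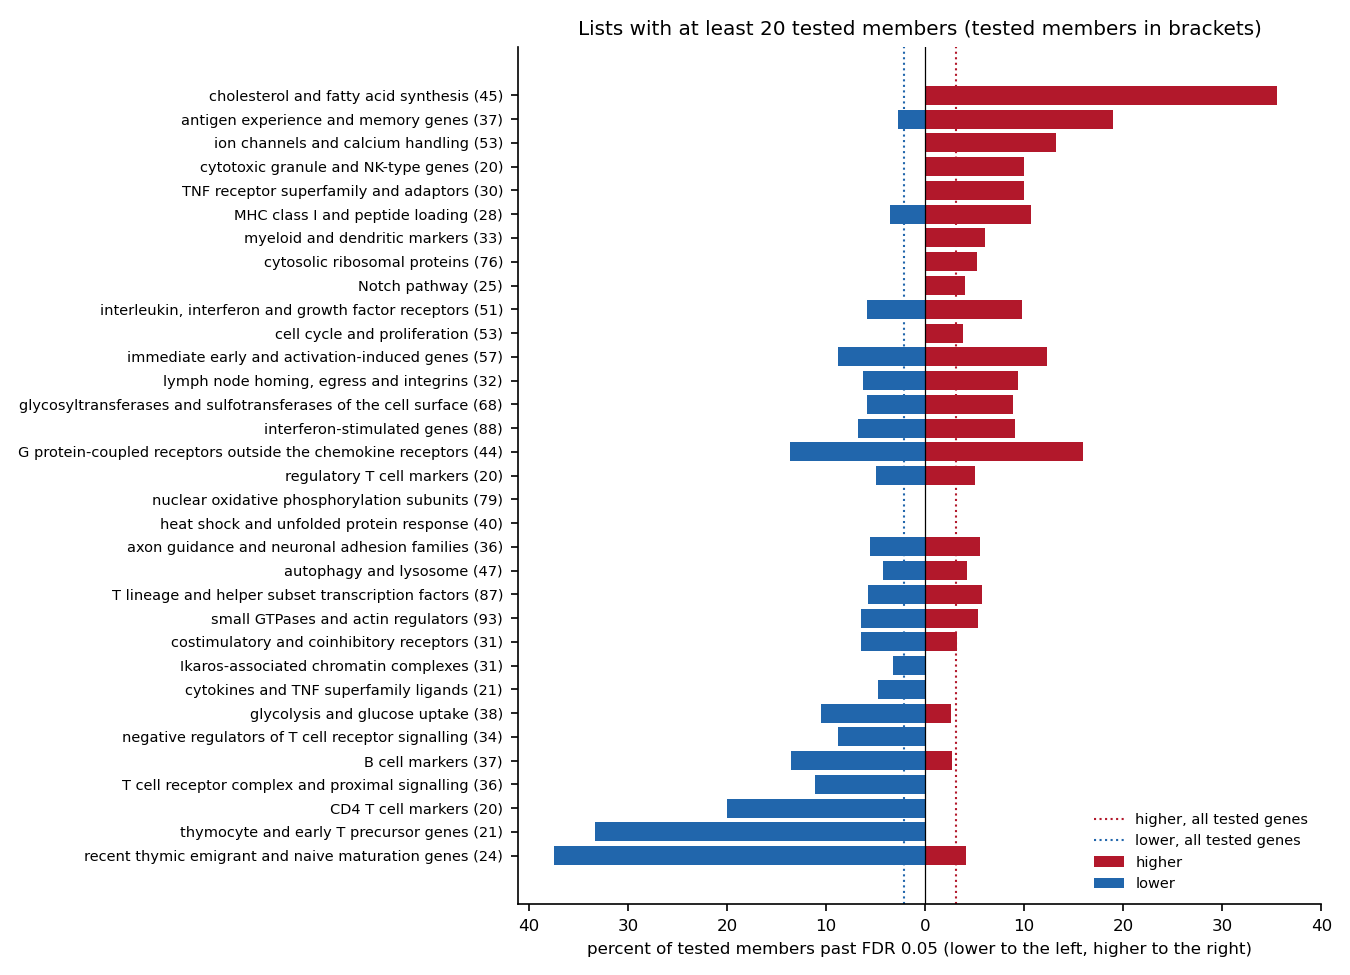
Percent of tested members that were DEGs (horizontal axis, higher to the right in red, lower to the left in blue) for each gene list with at least 20 tested members, whose number stands in brackets. Dotted lines mark the 3.14% higher and 2.12% lower of all tested genes, and the longest red bar is cholesterol and fatty acid synthesis at 35.6%.

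Among families formed by the shared letters of gene symbols, with at least 10 tested members, the Cyp genes had the largest share higher, at 5 of 15 (33.3%) with 0 lower. They encode cytochrome P450 enzymes, and besides Cyp51 of sterol synthesis they were Cyp4v3 (log2 fold change 1.23), Cyp4f16 (1.31), Cyp2d22 (0.66) and the sterol hydroxylase Cyp27a1, which had normalised counts of 1.29 and 6.04 in wild-type and 37.5 and 16.4 in N159S/N159S cells. The next families were Unc with 2 of 10 higher (Unc13a and Unc119), Klf with 2 of 12, Mfsd with 3 of 18, Bcl with 3 of 18, and Tnfrsf and Pde with 2 of 16 each. On the lower side no family passed 13.3%, which was Arhgef with 2 of 15 (Arhgef11 and Arhgef6), followed by Stk with 2 of 16. These families share letters and not always function.

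A few genes were close to absent in one genotype. Fut10, a fucosyltransferase, had 2 and 2 reads in Ikzf3 +/+ and 56 and 47 reads in Ikzf3 N159S/N159S cells (FDR 0.000564 by edgeR's quasi-likelihood test). Gas2l1, a protein that links actin and microtubules, had 0 and 3 reads against 51 and 54 (FDR 0.00374), and both genes kept the call without any one library. Ltbr, the lymphotoxin beta receptor, had 1 and 3 reads against 21 and 19 (FDR 0.0301). In the other direction Egln3, an oxygen-sensing prolyl hydroxylase, had 26 and 29 reads in wild-type and 2 and 2 in N159S/N159S cells (FDR 0.0105). The protease gene Tmprss13 had 12 and 13 reads against 1 and 0 (FDR 0.0277). The calls of Ltbr, Egln3 and Tmprss13 were lost whichever library was left out. In all, 7 higher DEGs had at most 3 reads in each wild-type library and 4 lower DEGs at most 3 in each N159S/N159S library, and at such counts a fitted fold is no reliable size. Pdgfb, a growth factor chain named after its values were seen, lay just below the level set for the largest rises and had normalised counts of 0 and 9.06 in wild-type and 132 and 170 in N159S/N159S cells (FDR 0.000219).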

How the data were processed

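The authors trimmed the reads with Trimmomatic 0.38.1, mapped them to mm10 with HISAT2 2.2.1, counted them on refGene genes with HTSeq 2.0.2 and deposited raw read counts per gene, without normalization. Whether counting used strand was not given in the sources used here, so overlapping and antisense genes are uncertain. Rows of uncounted reads were left out. Genes were kept by edgeR 4.0.16 (R 4.3.3) filterByExpr (minimum count 10, minimum total count 15), scaled by TMM and fitted with one coefficient per genotype over the 6 T cell libraries. The quasi-likelihood test of Ikzf3 N159S/N159S minus Ikzf3 +/+ was adjusted by Benjamini-Hochberg over all tested genes. Log2 CPM used a prior count of 2. The script was tested on simulated data. A few genes that the rule would name are not reported here. The list counts were described beside all tested genes, with no set test. Of the tested genes, 12066 matched RefSeq coordinates.

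The members, gene lists and naming rule were chosen with earlier results of these data known. Named were the Ikaros family, gate genes, the 15 largest rises and falls at a mean log2 CPM of 1 or more, the 8 largest at 6 or more, DEGs with at most 3 reads in one genotype, up to 6 called members of a list in each direction, and the called members of the 6 symbol families with the largest shares. The largest rises and falls were taken only from DEGs whose N159S/N159S and wild-type libraries did not overlap. Cd8a, Foxo1, called list members beyond 6 in a direction, the uncalled lipid and class I genes, Firre and Neat1 were named after their values were seen. Same-numbered wild-type and N159S/N159S libraries deviated in opposite directions (correlation -0.216), so the numbers were not taken as pairs. Alternatives were DESeq2 1.42.0, other size factors, filters, tests and thresholds, a replicate block, a fit of the 4 libraries and each library left out. The crossed pairing was added after seeing the data.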

Additional observations from a re-analysis of the deposited data

How the results depend on the processing

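The 637 DEGs kept their direction in all 16 alternatives in which they were tested, while the number called depended on the test. The kept direction is no independent support. No DEG had libraries that overlapped between genotypes, and several alternatives changed only the test or the threshold. It was 671 with DESeq2, of which 599 were shared, 632 with DESeq2's size factors and 722 in a fit of the 4 libraries. The likelihood ratio test gave 1042 (606 higher, 436 lower), the exact test 992 (574 and 418) and an FDR under 0.01 257 (156 and 101). With the replicate number as a block, 514 were called (313 and 201), and with the crossed pairing 2464 (1227 and 1237). A term for the split of libraries by genes detected gave 1756 (885 and 871), which moved the share of higher genes among calls from 59.7% to 50.4%. Leaving out one library gave 221 to 342 DEGs, 132 to 227 of them higher and 89 to 143 lower, with 221 without the second wild-type library, 305 without the first, 342 without the first N159S/N159S library and 336 without the second, and a lone library was then assumed to vary like the other genotypes. Of 211 named DEGs, 80 kept the call in all 4 of these fits and 51 lost it in all 4. Cd44, not a DEG, ranged from -0.70 to 0.01 on the log2 scale with one library left out, the latter without the first wild-type library (0.012). The median over all genes was 0.00038 with TMM and 0.000666 with DESeq2's size factors. With 2 libraries per genotype, genes at few reads were not resolved.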

Other observations

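Cytosolic ribosomal protein genes stood slightly higher in Ikzf3 N159S/N159S cells. Of 76 tested genes, 4 were higher by edgeR's quasi-likelihood test (Rps27a, Rps29, Rpl13 and Rpl36, 5.26%, beside 3.14% of all tested genes) and 0 lower. The log2 fold change was above 0 in all 76, with a median of 0.25, and in 68 of them both N159S/N159S libraries were above both wild-type libraries, beside 24.3% of all tested genes. Rps27a had normalised counts of 8621 and 8925 in Ikzf3 +/+ cells, 12717 and 10766 in Ikzf3 +/N159S cells and 12311 and 11962 in Ikzf3 N159S/N159S cells. These genes have near-identical pseudogene copies that can share their reads.

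Some higher or lower genes outside the naming rule were chosen after their values were seen. Casp1, the inflammatory caspase next to Casp4 in function, went from 34.7 and 30.2 to 138 and 157 (log2 fold change 2.19, FDR 0.000596), and the DNA sensor Aim2 from 512 and 593 to 774 and 765 (0.47, FDR 0.0354). Dck, which phosphorylates deoxycytidine in nucleoside salvage, fell from 1453 and 1289 to 571 and 636 (-1.18, FDR 0.000289). Of the nucleoside transporters that were DEGs, Slc28a2b and Slc28a2 fell (-1.32 and -0.48) and the equilibrative Slc29a1 rose (0.59, FDR 0.0230). Both subunits of soluble guanylate cyclase fell, Gucy1b1 from 75.9 and 47.3 to 11.3 and 9.87 and Gucy1a1 from 38.6 and 30.2 to 3.48 and 1.10.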
